A study of Mus musculus with 38 samples.

Results

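The hypothalamus of 8 mice labelled as overexpressing an N-terminal fragment of huntingtin (HTT) with 79 CAG repeats (79Q) was compared with that of 5 uninjected mice (Control). These are 13 of the 38 mice of the series. The 13 arrays were chosen by these labels alone. All were female wild-type FVB/N mice, and all were sacrificed at 12 weeks of age. The 79Q mice had been injected on both sides at 8 weeks of age with AAV-HTT853-79Q, an adeno-associated virus of serotype 5 that encodes the first 853 amino acids of HTT, and their tissue was taken 4 weeks later. The human Synapsin-1 promoter of the vector restricts the fragment largely to neurons, and the mice kept their own Htt alleles. Control mice received neither surgery nor virus, and no mouse of the experiment received a vector without HTT. The effects of the operation, the virus, the fragment and its repeat length therefore cannot be told apart in 79Q vs. Control. A group of 5 mice with the same vector and 18 CAG repeats (18Q), handled alike, shared the fit of the model and is given at the end beside 79Q.

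Total RNA was hybridised to Mouse Gene ST arrays of Affymetrix, 1 per mouse, and the 34,760 probe sets were deposited as log2 intensities. For a gene, log2(FC) is the mean of the 79Q arrays minus the mean of the Control arrays on this scale, so that 1 unit is a doubling. Its standard error (SE) and its adjusted p come from limma, with Benjamini-Hochberg adjustment over all 34,760 probe sets, and a gene is said to have risen or fallen only where adjusted p was under 0.05. The 21,640 probe sets with 1 gene symbol gave values for 19,937 genes, with the brightest probe set of each gene taken. The median log2 value of an array ran from 7.39 to 7.45 in 79Q and from 7.38 to 7.40 in Control. Precision is set by the number of arrays, and for a median probe set the 95% interval reached 0.13 log2 units on each side. Each array comes from a separate mouse, and a value of the tissue as a whole cannot tell a change in the number of cells of a type from a change in RNA per cell.

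HTT is a large scaffold protein of vesicle transport and transcription, and an expanded CAG repeat in its gene causes Huntington's disease. The hypothalamus is built from small groups of neurons that release peptides and amines to control feeding, sleep, reproduction and the daily rhythm, and loss of some of these peptides is known from the disease. Interferons are cytokines that switch on a large set of genes against viruses through receptors, Janus kinases and STAT and IRF transcription factors. Among their targets are the genes with which cells display peptides to T cells, and chemokines that draw leukocytes into tissue.

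Htt and tissue markers were looked at before the comparison. Neither Htt nor the position of the hypothalamus genes below against the array median tells a 79Q array from a Control array, so the group labels rest on the deposit. The probe set of Htt, which is designed to the mouse gene and need not read the transcript of the vector, had values of 10.27, 10.33 and 10.36 (lowest, median and highest) in the 8 79Q arrays, against 10.35, 10.37, 10.27, 10.30 and 10.26 in the 5 Control arrays. The groups overlapped, so these values give no evidence on whether the transgene was expressed. Of 8 genes that define the hypothalamus, namely Avp, Oxt, Pmch, Hcrt, Pomc, Trh, Gal and Cartpt, each lay above the median of the array in 8 of 8 79Q and in 5 of 5 Control arrays. The mean of each was lower in 79Q than in Control, from Trh (9.98 and 10.60) to Pomc (7.85 and 8.08). Among neighbouring tissues, thalamus and pituitary markers varied between mice. None of the 10 measured thalamus markers passed the test, and their mean per array lay between -0.17 and 0.44 in 79Q and between -0.18 and 0.22 in Control, as log2 difference from the mean of Control. The 3 highest were 79Q replicates 6, 7 and 8 (0.44, 0.30 and 0.43). For the pituitary, 0 of 9 markers passed, with list means of -0.25 to 0.90 in 79Q and -0.21 to 0.14 in Control, highest in 79Q replicates 5 and 8. Prl, the pituitary hormone prolactin, was 10.41 and 10.52 in these and at most 7.53 in the other 79Q arrays, against 5.64 to 6.60 in Control, and did not pass (log2(FC) = 1.50, adjusted p = 0.529), nor did Gh (0.63, adjusted p = 0.706) or Cga (-0.52, adjusted p = 0.822). Values without 79Q replicates 6, 7 and 8, called the 3 arrays below, are given for each named gene that lost its call without them, a choice made after the data had been seen. Fewer 79Q arrays then remain, so a call can be lost at an unchanged log2(FC). Replicates 7 and 8 also had the highest type I interferon means of the 8 79Q arrays (1.84 and 1.42 over Control). A lost call therefore cannot be assigned to thalamus signal.

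In 79Q vs. Control, the largest changes were increases in genes of the interferon response, of antigen presentation and of leukocytes. The genes that fell did so by smaller steps, and they included enzymes of cholesterol synthesis, the histamine enzyme Hdc and the peptide Nms. In all, 721 probe sets passed (2.07% of those tested), 519 of them higher (1.49%) and 202 lower (0.581%) in 79Q. At the level of genes, 546 of 19,937 passed (2.74%), of which 402 rose (2.02%) and 144 fell (0.722%). Of the 402, 91 rose by more than 1 log2 unit, 24 by more than 2 and 8 by more than 3. Of the 144, 4 fell by more than 0.5 units and 0 by more than 1. Among probe sets not named in the annotation, 1 fell by 1.24 units. The median log2(FC) was 0.59 among genes that rose and -0.20 among genes that fell, against -0.02 over all genes. The 79Q and Control arrays did not overlap in 482 genes that were higher in 79Q (2.42% of all genes) and 270 that were lower (1.35%), of which 364 and 89 passed the test. Counts of list members below are to be read against these shares of all genes. At an unadjusted p under 0.05 the balance was the other way, with 1312 genes higher and 2085 lower. After each array had been centred on its own median, 60.6% of the probe sets that passed were higher in 79Q, against 72.0% as deposited. Of the genes given with values below, 150 passed, and 104 of them passed in each of 13 further fits that left out 1 array, while the others are named where they occur with the number of these fits that lost the call and the highest adjusted p. Without the 3 arrays 98 of the 150 still passed, and for the other 52 the value without them is given.

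**Figure D1:**
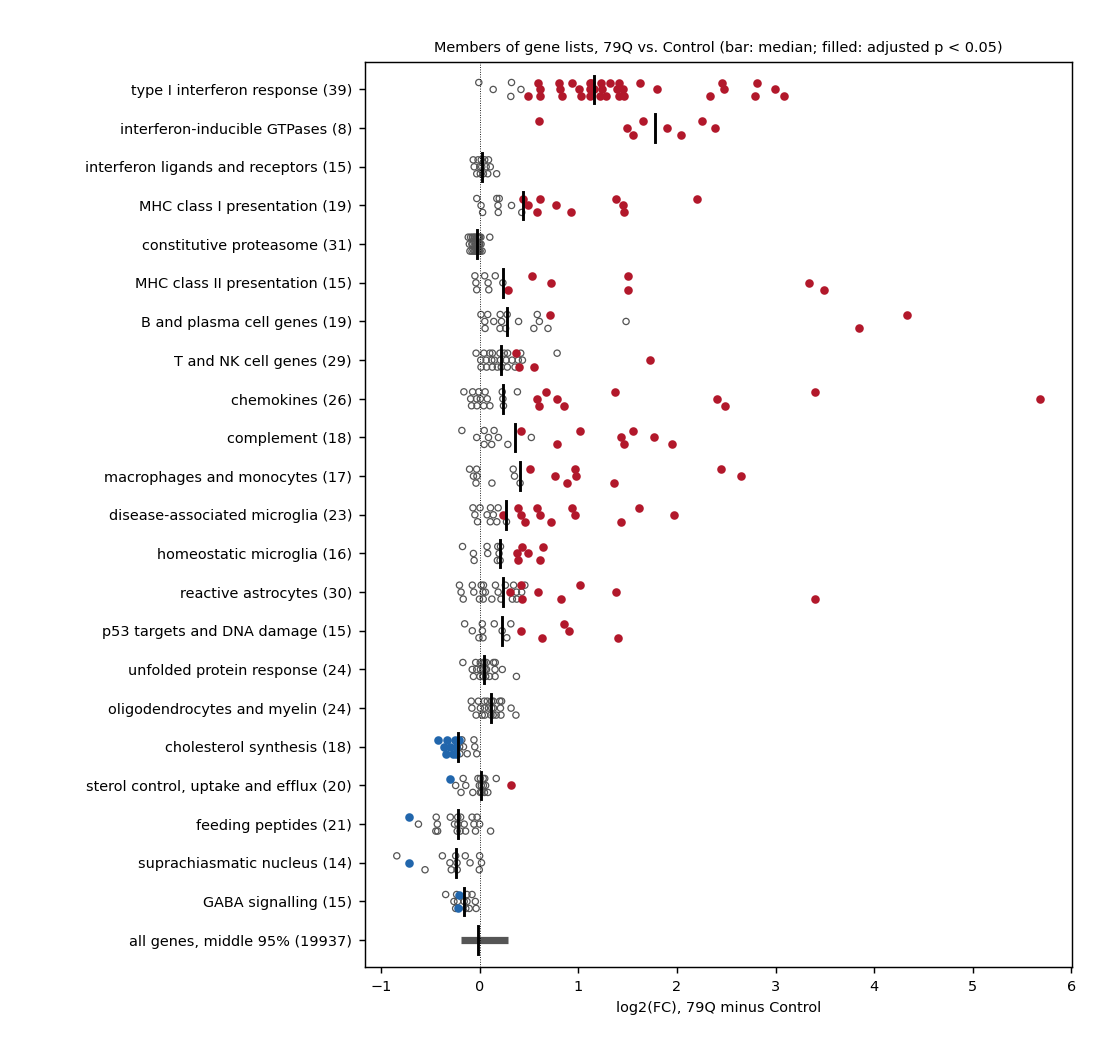
Log2(FC) of 79Q vs. Control (x axis) for the measured members of 22 gene lists and for all genes (rows, with the median as a vertical bar and the middle 95% of all genes as a thick line), filled where adjusted p was under 0.05 and open where not. Interferon and antigen presentation members spread to the right, while the 18 cholesterol synthesis members all lie left of 0.

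The gene with the largest increase was Cxcl13, a chemokine that attracts B cells. Its log2 values were 10.70, 10.83 and 12.13 (lowest, median and highest) in the 8 79Q arrays, against 5.14, 5.61, 5.10, 5.40 and 5.46 in the 5 Control arrays. Every 79Q array lay more than 4 units above every Control array, and the fold change was 51.3 (log2(FC) = 5.68, SE 0.28, adjusted p = 4.01e-09). Jchain, the chain that links units of secreted antibody and marks plasma cells, read 6.83, 9.54 and 10.93 (lowest, median and highest) in the 8 79Q arrays, against 5.45, 5.32, 5.91, 5.63 and 5.41 in the 5 Control arrays. Its groups did not overlap, but the 79Q mice spanned more than 4 units among themselves (log2(FC) = 3.85, SE 0.49, adjusted p = 0.000156). Igkv19-93, a variable gene of the kappa light chain, had a log2(FC) of 3.58 (SE 0.84, adjusted p = 0.0303) and an SD of 1.91 in 79Q and 0.14 in Control, and its call was fragile (lost in 9 of 13, adjusted p up to 0.0806, 2.52 without the 3 arrays, adjusted p = 0.245).

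Large increases with separate groups were also those of Cd74, the invariant chain that escorts MHC class II, with a fold change of 11.2, and H2-Aa, the alpha chain of a class II molecule, with 10.1. Cxcl10, a chemokine that interferons induce and that binds Cxcr3 on T cells, had values of 9.96, 10.26 and 11.39 (lowest, median and highest) in the 8 79Q arrays, against 7.14, 7.20, 6.99, 6.98 and 6.90 in the 5 Control arrays. The lowest 79Q mouse was well above the highest Control mouse (log2(FC) = 3.40, SE 0.29, adjusted p = 1.67e-06). The related Cxcl9 had a log2(FC) of 2.49 (SE 0.24). Of the other genes among the 15 largest increases with separate groups, Ifit1, Oasl2, Usp18, Ifit3, Rtp4 and Irf7 are known interferon-induced genes (log2(FC) 2.45 to 3.08). Gm4951 (2.61) carries the symbol of a predicted gene, and its function was not looked into. The remaining member of the 15, Lyz2, encodes the lysozyme of macrophages and microglia (log2(FC) = 2.65, SE 0.27, adjusted p = 1.45e-05).

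**Figure D2:**
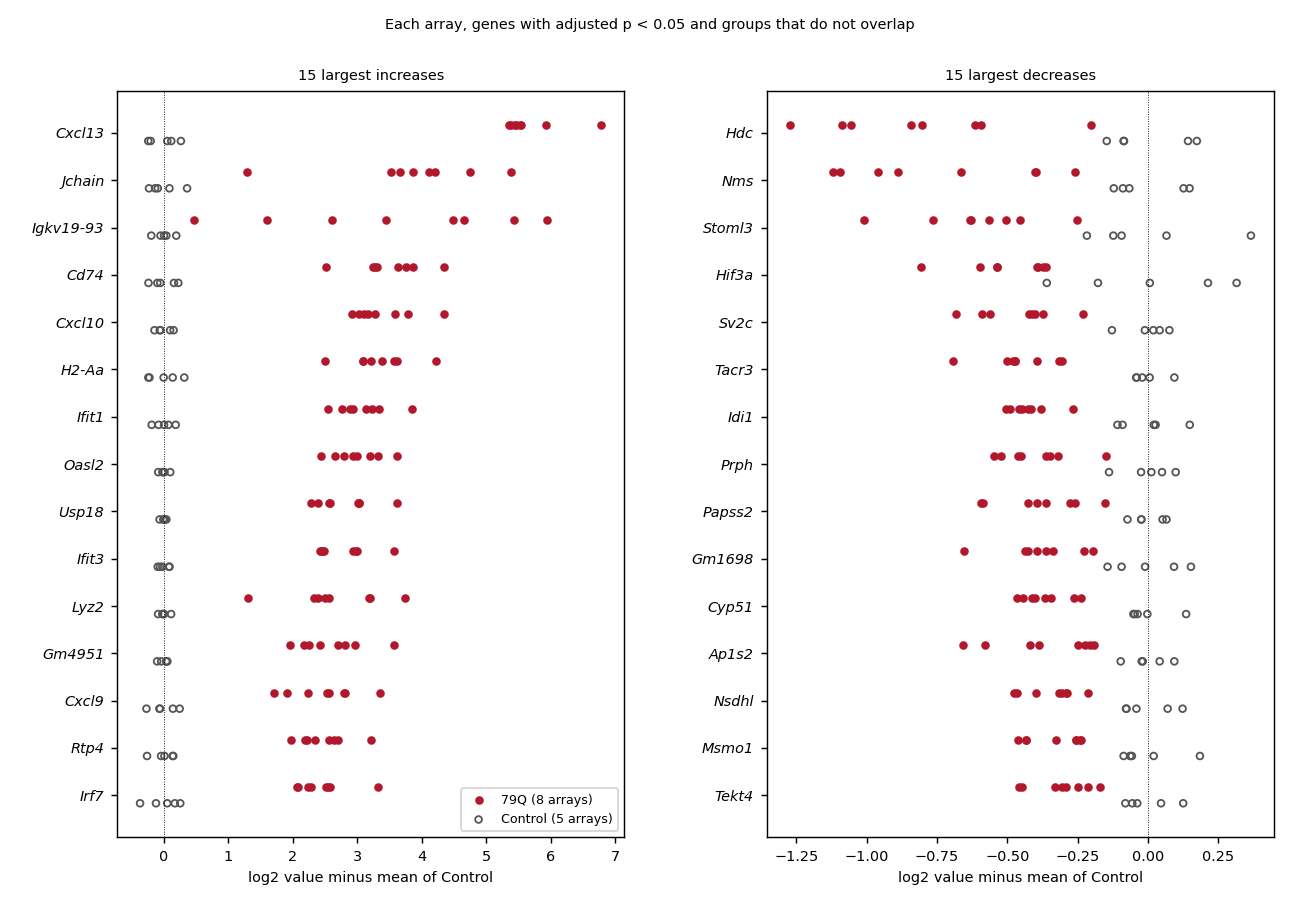
Log2 value of each array minus the mean of the 5 Control arrays (x axis) for the 15 largest increases (left) and the 15 largest decreases (right) with adjusted p under 0.05 and separate groups, with 79Q arrays (filled, 8) above Control arrays (open, 5) in each row and a different x scale in each panel. Cxcl13 stands apart at the top of the increases, and the decreases are all smaller than 1 unit on average.

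The interferon response rose nearly as a whole. Of 39 measured genes of the type I interferon list, 34 rose (87.2%, against 2.02% of all genes) and 0 fell, with a median log2(FC) of 1.16. In 36 of the 39, all 79Q arrays lay above all Control arrays, as in 2.42% of all genes. Among the sensors of viral nucleic acids, Ddx58 (the RNA sensor RIG-I) rose by 1.46, Ifih1 (the RNA sensor MDA5) by 1.39, Dhx58 by 0.82 and Zbp1 by 1.03 log2 units. Among the transcription factors, Irf7, which drives interferon genes once induced, read 8.67, 9.01 and 9.92 (lowest, median and highest) in the 8 79Q arrays, against 6.66, 6.49, 6.78, 6.24 and 6.86 in the 5 Control arrays. The groups were far apart (log2(FC) = 2.45, SE 0.22, adjusted p = 3.00e-06). Irf9 and Stat2, parts of the factor that interferon receptors activate, rose by 1.16 and 0.80.

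The effectors ranged widely in size. Ifit1, which binds viral RNA, had values of 8.87, 9.36 and 10.17 (lowest, median and highest) in the 8 79Q arrays, against 6.14, 6.40, 6.33, 6.51 and 6.24 in the 5 Control arrays. No 79Q array came near the Control range (log2(FC) = 3.08, SE 0.22, adjusted p = 2.49e-07). Its partner Ifit3 rose by 2.79 and Ifit2 by 1.11. In the oligoadenylate synthetase family, whose products activate RNA decay, Oasl2 read 10.18, 10.71 and 11.35 (lowest, median and highest) in the 8 79Q arrays, against 7.72, 7.73, 7.84, 7.75 and 7.65 in the 5 Control arrays. Again the groups did not overlap (log2(FC) = 3.0, SE 0.19, adjusted p = 5.91e-08), while Oas2 rose by 1.11, Oas1a by 0.94, and Oasl1 and Oas3 did not pass (0.42, adjusted p = 0.134, and 0.31, adjusted p = 0.207). Ifitm3, which blocks the entry of viruses into cells, rose by 1.80 (adjusted p = 2.29e-07), and Ifi27 had the smallest adjusted p of the list at a log2(FC) of 1.28 (SE 0.07, adjusted p = 9.97e-09). Eif2ak2 (the kinase PKR) rose by 1.13, Mx2 by 1.63, Rsad2 (viperin) by 1.12, Bst2 (tetherin) by 0.61 and Mx1 by 0.61 (lost in 5 of 13, adjusted p up to 0.0855, 0.47 without the 3 arrays, adjusted p = 0.133). Usp18, a protease that takes the interferon-induced modifier ISG15 off proteins and dampens the receptor, rose by 2.81 (SE 0.21). Probe sets of close relatives such as the Ifit, Oas, Mx and Gbp genes may read more than the gene they are named for.

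All 8 measured interferon-inducible GTPases, which act on the membranes around intracellular pathogens, rose (median log2(FC) 1.78). They were led by Iigp1 (2.38), Irgm1 (2.26) and Gbp3 (2.05), and Gbp9 was the smallest (0.60, lost in 9 of 13, adjusted p up to 0.107, 0.50 without the 3 arrays, adjusted p = 0.0570). The genes that encode interferons, their receptors and the Janus kinases stood apart from this pattern, since 0 of 15 measured members rose or fell and their log2(FC) lay between -0.07 and 0.17. The smallest adjusted p among them was that of the receptor subunit Ifnar2 (log2(FC) = 0.17, adjusted p = 0.0780, or 0.0490 without 79Q replicate 2). The list includes Ifnb1, Ifng and 4 genes of alpha interferons, and an array of the tissue 4 weeks after injection gives no view of earlier time points.

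Promoter sequences are shown for 5 of these genes, because members that moved together could be searched for shared letters. The core of the interferon-stimulated response element was taken as GAAA, any 2 bases and GAAA again, and searched on both strands, overlapping matches included, in RefSeq windows (GRCm38.p6) of 250 bases before to 50 bases after the start. It was found in 3.44% of 32,851 windows and in 3.99% of 27,025 genes. Of the 34 interferon genes that rose, 23 had a window and 11 of these held it (47.8%), and so did 4 of 4 GTPases and 2 of 8 MHC class I presentation genes that rose. Among members with a window that did not pass, 1 of 5 interferon genes and 1 of 6 MHC class I presentation genes held it. The stretches below run 5' to 3' along each gene, end before its start, and carry the matches in capitals, where TTTC on both sides of 2 bases is the same core read on the opposite strand.
Ifit1 (chr19:34640765-34640833, plus strand): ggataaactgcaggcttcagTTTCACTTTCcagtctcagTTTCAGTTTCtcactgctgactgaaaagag
Ifit3 (chr19:34583353-34583436, plus strand): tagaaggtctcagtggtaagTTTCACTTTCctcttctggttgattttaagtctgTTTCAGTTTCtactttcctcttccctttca
Irgm1 (chr11:48871421-48871470, minus strand): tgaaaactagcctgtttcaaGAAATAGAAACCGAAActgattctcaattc
Gbp3 (chr3:142559979-142560034, plus strand): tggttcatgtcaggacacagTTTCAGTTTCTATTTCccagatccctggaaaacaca
B2m (chr2:122147528-122147577, plus strand): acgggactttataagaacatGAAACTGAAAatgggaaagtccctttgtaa
Ifit1 and Ifit3 each hold 2 separate cores, Irgm1 and Gbp3 hold 2 that overlap, and B2m holds 1. A match is a description of these letters, and binding was not measured.

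Genes of MHC class I presentation rose in 10 of 19 measured cases (52.6%, against 2.02% of all genes, median log2(FC) 0.44). B2m, the light chain shared by class I molecules, had values of 12.45, 12.70 and 12.96 (lowest, median and highest) in the 8 79Q arrays, against 11.12, 11.20, 11.30, 11.25 and 11.22 in the 5 Control arrays. It was among the most uniform increases, with an SD of 0.16 in 79Q and 0.07 in Control (log2(FC) = 1.46, SE 0.09, adjusted p = 5.01e-08). The heavy chain gene H2-Q4 rose by 2.20, the peptide transporter subunits Tap1 and Tap2 by 1.46 and 0.77, and their partner Tapbp by 0.58. Psmb8 and Psmb9, catalytic subunits that replace the standard ones in the immunoproteasome, rose by 1.38 and 0.93, whereas Psmb10 did not pass (0.20, adjusted p = 0.200). None of 31 measured subunits of the constitutive proteasome passed, with log2(FC) from -0.12 to 0.10. The general folding factors Canx, Calr and Pdia3 were likewise without a call.

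For MHC class II, 7 of 15 measured genes rose (46.7%, against 2.02% of all genes). H2-Aa read 7.92, 8.72 and 9.64 (lowest, median and highest) in the 8 79Q arrays, against 5.56, 5.42, 5.19, 5.74 and 5.20 in the 5 Control arrays. Its groups were separated by more than 1 unit (log2(FC) = 3.33, SE 0.25, adjusted p = 4.78e-07). H2-Ab1, the beta chain that pairs with it, rose by 1.50, the protease Ctss, which trims the invariant chain, by 1.50, the peptide loader H2-DMa by 0.53 and the costimulator Cd86 by 0.73. Ciita, the master regulator of class II genes, had a log2(FC) of 0.09 and did not pass (adjusted p = 0.597), nor did Cd80 and Cd40 or the RFX subunits that bind class II promoters.

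Few genes of B and plasma cells rose, and only Jchain and Igha did so by large steps. Of 19 measured, 3 rose (15.8%, against 2.02% of all genes), namely Jchain, Igha and Pou2af1, and the median log2(FC) was 0.28. Igha, the constant gene of immunoglobulin A, had a log2(FC) of 4.34 (SE 0.71, adjusted p = 0.00182). Pou2af1, a coactivator of B cells, was at 0.71 (lost in 11 of 13, adjusted p up to 0.129, 0.63 without the 3 arrays, adjusted p = 0.255). Igha ranged from 7.44 to 13.24 in 79Q and from 6.85 to 7.56 in Control, and its groups overlapped in 79Q replicate 3. Of 11 measured immunoglobulin chain genes, 2 rose, and the mean of the 11 per array was 0.38 to 2.92 above Control. Ighm, the constant gene of immunoglobulin M, did not pass (1.48, adjusted p = 0.204). Markers of the B cell stage did not pass either, among them Cd79a (0.58, adjusted p = 0.0923, or 0.0375 without 79Q replicate 3) and Ms4a1 (0.22, adjusted p = 0.438). Probe sets of immunoglobulin genes can share sequence, so that a value may stand for relatives of the named gene.

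Among 29 measured T and NK cell genes, 4 rose (13.8%, against 2.02% of all genes): the T cell receptor chains Cd3g and Cd3e and the coreceptors Cd4 and Cd8b1. Cd3g had values of 6.52, 7.18 and 8.16 (lowest, median and highest) in the 8 79Q arrays, against 5.65, 5.63, 5.45, 5.67 and 5.11 in the 5 Control arrays. The groups were apart (log2(FC) = 1.72, SE 0.29, adjusted p = 0.00228). The other 3 rose by 0.36 to 0.55, while Cd8a (0.28, adjusted p = 0.261), Gzmb (0.18, adjusted p = 0.380) and Nkg7 (0.78, adjusted p = 0.0591, or 0.0365 without 79Q replicate 5) did not pass. Without 79Q replicates 6, 7 and 8 only Cd3g of the 29 still passed, and with 1 array left out Cd8b1 (lost in 9 of 13, adjusted p up to 0.137, 0.31 without the 3 arrays, adjusted p = 0.279), Cd3e (lost in 2 of 13, adjusted p up to 0.0693, 0.43 without the 3 arrays, adjusted p = 0.172) and Cd4 (lost in 11 of 13, adjusted p up to 0.118, 0.31 without the 3 arrays, adjusted p = 0.323) varied in their call.

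Chemokines rose in 10 of 26 measured cases (38.5%, against 2.02% of all genes). Beside Cxcl13, Cxcl10 and Cxcl9, these were Ccl5 (2.40), which attracts T cells, Ccl3 (1.37), Cxcl16 (0.85), Cxcl11 (0.78, lost in 8 of 13, adjusted p up to 0.0997, 0.69 without the 3 arrays, adjusted p = 0.200), Ccl2 (0.67, lost in 9 of 13, adjusted p up to 0.126, 0.55 without the 3 arrays, adjusted p = 0.178), Ccl12 (0.60, lost in 4 of 13, adjusted p up to 0.0932, 0.49 without the 3 arrays, adjusted p = 0.123) and Ccl8 (0.58, lost in 4 of 13, adjusted p up to 0.0739, 0.45 without the 3 arrays, adjusted p = 0.0949). The neutrophil chemokines Cxcl1, Cxcl2 and Cxcl5 did not pass, and of 18 measured chemokine receptors only Cx3cr1, which marks microglia, rose (0.42, lost in 1 of 13, adjusted p up to 0.0510, 0.33 without the 3 arrays, adjusted p = 0.0710). The receptor for Cxcl13, Cxcr5, and that for Cxcl9 and Cxcl10, Cxcr3 (0.22, adjusted p = 0.313), had no call. Of 27 cytokines and members of the TNF family, 3 rose: Cd274 (PD-L1), which restrains T cells (1.04), Il1a (0.96) and Tnfsf10 (TRAIL, 0.67, lost in 4 of 13, adjusted p up to 0.0994, 0.53 without the 3 arrays, adjusted p = 0.190). Tnf had a log2(FC) of 0.31 (adjusted p = 0.125), and Il6 and Il1b were also without a call. Genes of leukocyte adhesion rose in 7 of 12 cases, led by the integrin chains Itgb2 (0.85), Itgax (0.72, lost in 2 of 13, adjusted p up to 0.0604, 0.59 without the 3 arrays, adjusted p = 0.0632) and Itgam (0.68), by Icam1 (0.56, lost in 4 of 13, adjusted p up to 0.0625, 0.42 without the 3 arrays, adjusted p = 0.123), their ligand on vessel walls, and by the selectin ligand Selplg (0.45). Without 79Q replicates 6, 7 and 8, 6 of the 26 chemokines and 3 of the 12 adhesion genes passed.

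The first components of the classical complement pathway rose. C1qa, C1qb and C1qc, which form the recognition unit C1q and come from microglia in brain, rose by 1.46, 1.43 and 1.77. C4b, the next component, read 10.02, 10.49 and 11.22 (lowest, median and highest) in the 8 79Q arrays, against 8.52, 8.85, 8.51, 8.58 and 8.59 in the 5 Control arrays. Its groups did not overlap (log2(FC) = 1.95, SE 0.18, adjusted p = 3.87e-06). The inhibitor Serping1 (1.02) and the receptor C3ar1 (1.56) rose as well, and 8 of 18 measured complement genes rose in all (44.4%, against 2.02% of all genes), whereas Cfb did not pass (0.52, adjusted p = 0.0780). C4a (0.79) and C4b are near-identical copies, and their probe sets may read both.

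Part of the myeloid genes rose. Of 17 measured macrophage and monocyte genes, 8 rose (47.1%, against 2.02% of all genes), led by Lyz2, Ms4a6c (2.45) and Ms4a6b (1.36), while the perivascular macrophage markers Mrc1, Cd163 and Lyve1 and the neutrophil genes S100a8 and S100a9 had no call. Lyz2 had values of 7.78, 9.0 and 10.21 (lowest, median and highest) in the 8 79Q arrays, against 6.45, 6.48, 6.45, 6.38 and 6.58 in the 5 Control arrays. Every 79Q array was above every Control array. Of 23 genes of disease-associated microglia, a state described around plaques and dying neurons, 12 rose, among them Cd52 (1.96), Cst7 (1.62), Gpnmb (1.43), Cd68 (0.94), Tyrobp (0.96), Trem2 (0.58, 0.51 without the 3 arrays, adjusted p = 0.0788) and Clec7a (0.46, 0.37 without the 3 arrays, adjusted p = 0.0521). Of 16 genes of homeostatic microglia, 6 rose and 0 fell, among them the receptors Csf1r (0.49) and Tgfbr1 (0.38), Tmem119 (0.61, 0.51 without the 3 arrays, adjusted p = 0.0625) and Cx3cr1, whereas P2ry12 was 0.18 (adjusted p = 0.296). Fc receptors rose in 5 of 7 cases, with the common chain Fcer1g (1.04) the largest and Fcgr4 (0.66) at the smallest adjusted p. Of 20 Toll-like receptor genes, 8 rose, including the sensors of nucleic acids Tlr3 (0.63), Tlr9 (0.41, lost in 11 of 13, adjusted p up to 0.135, 0.35 without the 3 arrays, adjusted p = 0.243) and Tlr13 (0.67, lost in 6 of 13, adjusted p up to 0.0851, 0.51 without the 3 arrays, adjusted p = 0.193), their chaperone Unc93b1 (0.66), the adaptor Myd88 (0.49) and Ly86 (0.98), a partner of Cd180 on myeloid and B cells. Without 79Q replicates 6, 7 and 8 the counts were 6 of 17, 7 of 23, 2 of 16, 3 of 7 and 5 of 20.

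Part of the astrocyte genes rose. Gfap, the filament protein of reactive astrocytes, had values of 10.13, 10.55 and 10.97 (lowest, median and highest) in the 8 79Q arrays, against 10.13, 10.14, 9.88, 9.96 and 10.10 in the 5 Control arrays. The groups overlapped, and it did not pass (log2(FC) = 0.46, SE 0.13, adjusted p = 0.0844), although it did without 79Q replicate 3 (adjusted p = 0.0384). Of 30 genes of reactive astrocytes 8 rose (26.7%, against 2.02% of all genes), and 4 of these, Cxcl10, Psmb8, Serping1 and Cd44, also stand in the immune lists above. Osmr, the receptor of oncostatin M, rose by 0.82 and Cd109 by 0.42 (lost in 2 of 13, adjusted p up to 0.0629, 0.33 without the 3 arrays, adjusted p = 0.0685), while Vim (0.37, adjusted p = 0.0539, under 0.05 without 79Q replicate 3 or 4) and Serpina3n (0.21, adjusted p = 0.0910) did not pass. Of 19 genes of homeostatic astrocytes 2 fell (10.5%, against 0.722% of all genes). They were Agt (-0.29), which encodes angiotensinogen, and Gjb6 (-0.25), a gap junction protein. With 1 array left out, Agt varied in its call (lost in 9 of 13, adjusted p up to 0.134), and so did Gjb6 (lost in 10 of 13, adjusted p up to 0.151). Both calls were lost without 79Q replicates 6, 7 and 8 (-0.23, adjusted p = 0.282, and -0.21, adjusted p = 0.294).

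Genes of cell death and of the p53 response rose in part. Eda2r, a death receptor that p53 induces, read 6.62, 7.08 and 7.64 (lowest, median and highest) in the 8 79Q arrays, against 6.04, 5.80, 5.75, 5.53 and 5.53 in the 5 Control arrays. The groups did not overlap (log2(FC) = 1.41, SE 0.16, adjusted p = 6.44e-05). Of 15 measured p53 targets 5 rose, the others being Trp53inp1 (0.91), Ccng1 (0.86), Sesn2 (0.63) and Phlda3 (0.42). Mdm2 (0.23, adjusted p = 0.138) did not pass, nor did the killers Bbc3 (PUMA) and Pmaip1 (NOXA). The same 5 genes passed without 79Q replicates 6, 7 and 8. Of 24 genes of apoptosis, necroptosis and pyroptosis 9 rose (37.5%, against 2.02% of all genes), among them the death receptors Tnfrsf10b (0.81, 0.64 without the 3 arrays, adjusted p = 0.0665), Tnfrsf1a (0.64) and Fas (0.28, lost in 11 of 13, adjusted p up to 0.136, 0.23 without the 3 arrays, adjusted p = 0.263), Casp8 (0.61), Casp12 (0.76, lost in 1 of 13, adjusted p up to 0.0537), the pore former Gsdmd (0.29, lost in 1 of 13, adjusted p up to 0.0566, 0.26 without the 3 arrays, adjusted p = 0.123) and Mlkl (0.43, lost in 10 of 13, adjusted p up to 0.133, 0.40 without the 3 arrays, adjusted p = 0.230), the executor of necroptosis. Without those 3 arrays 3 of the 24 passed. Of 27 genes of autophagy and lysosome 5 rose (18.5%, against 2.02% of all genes), among them the proteases Ctss, Ctsc (1.20), Ctsh (0.64) and Ctsd (0.42), whereas the protease Ctsb (0.07, adjusted p = 0.484) and autophagy genes such as Becn1, Atg5 and Sqstm1 did not pass. In the oxidative stress list Hmox1 (0.43, lost in 3 of 13, adjusted p up to 0.0703, 0.30 without the 3 arrays, adjusted p = 0.0698), Slc7a11 (0.23, lost in 8 of 13, adjusted p up to 0.111, 0.23 without the 3 arrays, adjusted p = 0.186) and Nfe2l2 (0.35, lost in 10 of 13, adjusted p up to 0.102, 0.26 without the 3 arrays, adjusted p = 0.286) rose, 3 of 16 measured.

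The decreases were smaller than the increases and more uniform between mice. Among genes that rose the SD was larger in 79Q than in Control in 93.0%, and among genes that fell in 59.7%, against 65.2% of all genes. The 15 largest decreases with separate groups were, in order, Hdc, Nms, Stoml3, Hif3a, Sv2c, Tacr3, Idi1, Prph, Papss2, Gm1698, Cyp51, Ap1s2, Nsdhl, Msmo1 and Tekt4, from -0.81 to -0.31 log2 units. Of these 15, 4 are enzymes of cholesterol synthesis (Idi1, Cyp51, Nsdhl and Msmo1), and 4 belong to transmitter or peptide systems of neurons (Hdc, Nms, Sv2c and Tacr3). Stoml3 (-0.60, adjusted p = 0.0444, lost in 12 of 13, adjusted p up to 0.151, -0.51 without the 3 arrays, adjusted p = 0.281) is a membrane protein of sensory neurons, Papss2 (-0.38, -0.33 without the 3 arrays, adjusted p = 0.106) makes the donor for sulfation, Ap1s2 (-0.36, lost in 2 of 13, adjusted p up to 0.0665, -0.29 without the 3 arrays, adjusted p = 0.149) is part of a clathrin adaptor, and Tekt4 (-0.31, -0.26 without the 3 arrays, adjusted p = 0.0731) is a protein of cilia.

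Enzymes from the entry to the last steps of cholesterol synthesis fell. Of 18 measured, 10 fell (55.6%, against 0.722% of all genes) and 0 rose, all 18 had a log2(FC) below 0, and the median was -0.22, against -0.02 over all genes. Before the branch to sterols, Hmgcs1, which makes the HMG-CoA that enters the pathway, had values of 10.52, 10.64 and 10.75 (lowest, median and highest) in the 8 79Q arrays, against 10.90, 10.91, 10.80, 10.96 and 10.85 in the 5 Control arrays. The groups were separate but close (log2(FC) = -0.24, SE 0.06, adjusted p = 0.0485, lost in 12 of 13, adjusted p up to 0.147, -0.25 without the 3 arrays, adjusted p = 0.186). Idi1, which makes dimethylallyl pyrophosphate from its isomer, read 8.77, 8.83 and 9.0 (lowest, median and highest) in the 8 79Q arrays, against 9.29, 9.16, 9.30, 9.42 and 9.18 in the 5 Control arrays. All 79Q arrays were below all Control arrays (log2(FC) = -0.42, SE 0.07, adjusted p = 0.00110). Mvk and Mvd, the mevalonate kinase and decarboxylase, did not pass (-0.13, adjusted p = 0.105, and -0.18, adjusted p = 0.0864), nor did Fdps (-0.20, adjusted p = 0.222).

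Of the enzymes committed to sterols, Fdft1 makes squalene and fell by 0.28 (adjusted p = 0.0377), with a fragile call (lost in 7 of 13, adjusted p up to 0.121, -0.29 without the 3 arrays, adjusted p = 0.158). Sqle, which oxidises squalene and limits the rate of this part, had values of 9.42, 9.57 and 9.65 (lowest, median and highest) in the 8 79Q arrays, against 9.82, 9.84, 9.78, 9.98 and 9.85 in the 5 Control arrays. It had the smallest adjusted p of the pathway (log2(FC) = -0.30, SE 0.04, adjusted p = 0.000598), with an SD of 0.07 in 79Q and 0.08 in Control. Lss closes the rings to lanosterol and fell by 0.24 (adjusted p = 0.00496), and Cyp51 then removes a methyl group and fell by 0.37 (adjusted p = 0.00887). Msmo1 and Nsdhl, which take off the next methyl groups, fell by 0.33 (adjusted p = 0.0206) and 0.34 (adjusted p = 0.00199), and the reductases Tm7sf2 and Dhcr7 by 0.21 (adjusted p = 0.0148) and 0.25 (adjusted p = 0.00601). Cyp51 lost its call without the 3 arrays at a similar log2(FC) (-0.35, adjusted p = 0.0936). Among these, Msmo1 (lost in 2 of 13, adjusted p up to 0.0828, -0.34 without the 3 arrays, adjusted p = 0.0890) and Tm7sf2 (lost in 2 of 13, adjusted p up to 0.0633, -0.20 without the 3 arrays, adjusted p = 0.121) varied in their call with 1 array left out. Sc5d (-0.17, adjusted p = 0.0728) and Hsd17b7 (-0.21, adjusted p = 0.178) did not pass. Without 79Q replicates 6, 7 and 8, 5 of the 18 passed, and the median log2(FC) was -0.25. The list mean was below every Control array in each of the 8 79Q arrays, at -0.28 to -0.17 against -0.06 to 0.09 in Control. Oligodendrocytes are large makers of sterol in brain. Of 24 measured myelin genes 0 passed, against 2.74% of all genes, and 20 of the 24 had a log2(FC) above 0 (median 0.11). Their list means were -0.19 to 0.28 in 79Q and -0.04 to 0.08 in Control. The part of these cells in the sterol decrease was not tested.

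**Figure D3:**
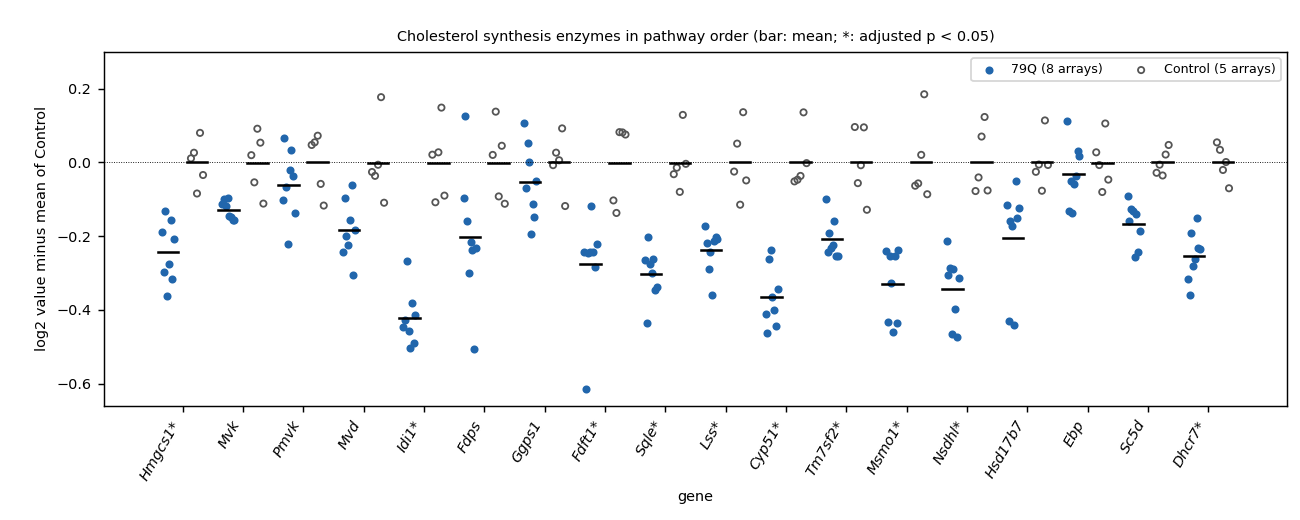
Log2 value of each array minus the mean of the 5 Control arrays (y axis) for 18 enzymes of cholesterol synthesis in pathway order (x axis), with 79Q (filled, 8 arrays) left of Control (open, 5 arrays) and group means as bars. The mean of 79Q lies below that of Control for all 18, and names with an asterisk passed at adjusted p under 0.05.

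Around the pathway, Insig1, which holds the sterol sensor in the endoplasmic reticulum, fell (log2(FC) = -0.30, SE 0.07, adjusted p = 0.0275, lost in 5 of 13, adjusted p up to 0.105), and Abca1, which exports cholesterol, rose (log2(FC) = 0.31, SE 0.07, adjusted p = 0.0206, lost in 2 of 13, adjusted p up to 0.0708, 0.26 without the 3 arrays, adjusted p = 0.148). Srebf2, the transcription factor of the pathway, did not pass (-0.14, adjusted p = 0.106), nor did Cyp46a1 (-0.17, adjusted p = 0.0553), through which neurons clear cholesterol. Insig1 and Abca1 were the only ones of 20 measured genes of sterol control, uptake and efflux to pass, and without the 3 arrays only Insig1 did (-0.33, adjusted p = 0.0476). In fatty acid synthesis 2 of 24 fell (8.33%, against 0.722% of all genes), Elovl2 (-0.30) and Acss2 (-0.23). Fasn (-0.11, adjusted p = 0.138) and Scd1 (-0.12, adjusted p = 0.381) did not pass. The sterol regulatory element was spelled TCACNCCAC and searched on both strands of the same windows, where 1.24% of all windows and 1.44% of genes held it. Of the 10 enzymes that fell, 8 had a window and 1 held it, Hmgcs1, whose match stands in capitals.
Hmgcs1 (chr13:119690194-119690242, plus strand): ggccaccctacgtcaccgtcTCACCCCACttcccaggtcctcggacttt
No match in the other windows says only that these letters are absent there.

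In the neuronal systems of the hypothalamus, single genes fell, and many further list members had a log2(FC) below 0 without a call. It was below 0 in 20 of 21 feeding peptides and 23 of 24 feeding receptors. So it was in 15 of 15 GABA genes and 27 of 27 vesicle and secretory genes. For these lists the mean of every 79Q array lay below every Control array. In glutamate signalling it was 22 of 29 and in the dopamine list 11 of 16, and there the list means overlapped. Over all genes it was 11,981 of 19,937. Hdc, the enzyme that makes histamine in neurons of the tuberomammillary nucleus, had values of 8.20, 8.65 and 9.28 (lowest, median and highest) in the 8 79Q arrays, against 9.39, 9.33, 9.62, 9.65 and 9.39 in the 5 Control arrays. The 79Q arrays lay below all Control arrays, and the level was lower by 1.75-fold (log2(FC) = -0.81, SE 0.14, adjusted p = 0.00373). With each of the 13 arrays left out in turn, its adjusted p ran from 0.000346 to 0.0171. The other 7 measured genes of histamine signalling did not pass, with Slc18a2, the vesicular transporter that histamine and dopamine neurons share, at -0.45 (adjusted p = 0.238). Tacr3, the receptor of neurokinin B on reproductive neurons, read 8.25, 8.48 and 8.64 (lowest, median and highest) in the 8 79Q arrays, against 8.91, 9.04, 8.91, 8.93 and 8.95 in the 5 Control arrays. The groups were separate (log2(FC) = -0.45, SE 0.06, adjusted p = 0.000403), and the call held without 79Q replicates 6, 7 and 8 (-0.41, adjusted p = 0.00327), as did that of Hdc (-0.79, adjusted p = 0.0330). The ligand Tac2 was -0.27 (adjusted p = 0.246).

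Nms, neuromedin S, a peptide of the suprachiasmatic nucleus, had values of 6.74, 7.09 and 7.61 (lowest, median and highest) in the 8 79Q arrays, against 7.80, 8.01, 7.78, 7.99 and 7.74 in the 5 Control arrays. The groups did not overlap (log2(FC) = -0.72, SE 0.16, adjusted p = 0.0229), but without 79Q replicates 6, 7 and 8 the log2(FC) was -0.52 and no longer passed (adjusted p = 0.201), nor did it in some fits with 1 array left out (lost in 2 of 13, adjusted p up to 0.0756). Of the 14 measured genes of this nucleus only Nms fell, and the median was -0.24. Vip, its best known peptide, read 6.17, 6.59 and 7.49 (lowest, median and highest) in the 8 79Q arrays, against 7.51, 7.76, 7.47, 7.63 and 7.78 in the 5 Control arrays. The groups overlapped, and Vip did not pass (log2(FC) = -0.84, SE 0.25, adjusted p = 0.101), although it did without 79Q replicate 3 (adjusted p = 0.0496). The list mean was below every Control array in each of the 8 79Q arrays, at -0.48 to -0.10 against -0.08 to 0.05 in Control. It was lowest in 79Q replicates 6, 7 and 8 (-0.45, -0.48 and -0.48), the arrays with the most thalamus marker signal. The part of thalamus signal in these decreases was not tested, since leaving the arrays out also lowers the number of mice.

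Of the 21 measured feeding peptides only Nms fell, and the median log2(FC) was -0.22. Hcrt (orexin), which keeps animals awake and feeding, had values of 11.80, 12.34 and 12.58 (lowest, median and highest) in the 8 79Q arrays, against 12.63, 12.83, 12.69, 12.64 and 12.69 in the 5 Control arrays. The groups were just separate, and it did not pass (log2(FC) = -0.43, SE 0.12, adjusted p = 0.0865). Cartpt read 9.98, 10.25 and 10.80 (lowest, median and highest) in the 8 79Q arrays, against 10.64, 10.96, 10.81, 10.96 and 10.70 in the 5 Control arrays. There the groups overlapped (log2(FC) = -0.44, SE 0.14, adjusted p = 0.128). Trh (-0.62, adjusted p = 0.227), Gal (-0.43, adjusted p = 0.112), Pmch (-0.30, adjusted p = 0.261) and Pomc (-0.22, adjusted p = 0.447) did not pass either. Of 24 feeding receptors 0 passed (median -0.20), the closest being Hcrtr1 (-0.23, adjusted p = 0.0502), which passed without 79Q replicate 3 or 5. None of 15 genes of the neurohypophysial and growth hormone axis passed, Ghrh included (-0.28, adjusted p = 0.464), and none of 16 of the dopamine list, with Th at -0.45 (adjusted p = 0.210) and Ddc at -0.29 (adjusted p = 0.373). The opioid precursor Penk fell (log2(FC) = -0.29, SE 0.07, adjusted p = 0.0297), with values of 11.69, 11.92 and 12.03 (lowest, median and highest) in the 8 79Q arrays, against 12.19, 12.24, 12.13, 12.13 and 12.27 in the 5 Control arrays. Its groups were separate, but the call was lost in several fits with 1 array left out (lost in 8 of 13, adjusted p up to 0.0881) and without 79Q replicates 6, 7 and 8 (-0.22, adjusted p = 0.249).

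**Figure D4:**
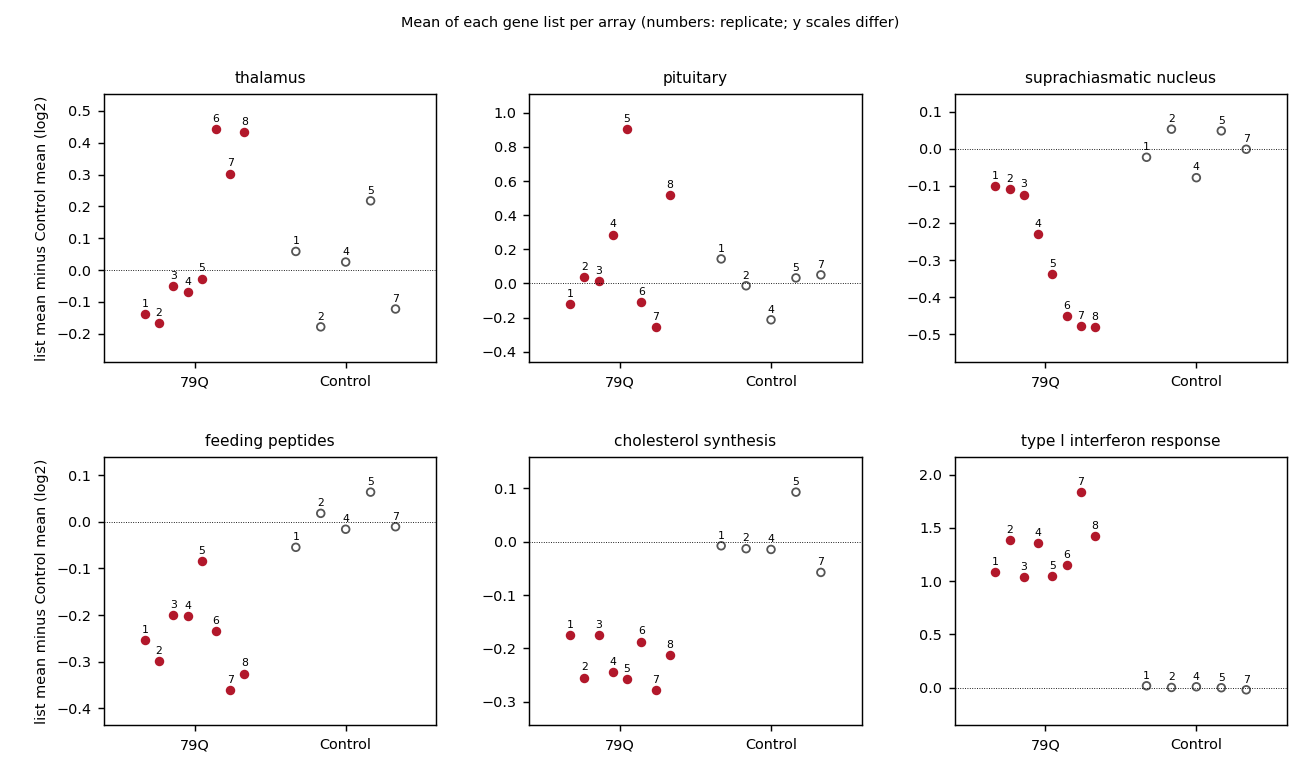
Mean of a gene list per array minus its mean in Control (y axis, log2 units) for 6 lists, with the 8 79Q arrays (filled, labelled by replicate number) left of the 5 Control arrays (open). Replicates 6, 7 and 8 of 79Q are highest for thalamus markers and lowest for suprachiasmatic genes. In all 8 79Q arrays, cholesterol synthesis, suprachiasmatic genes and feeding peptides are below every Control array, and the type I interferon response is above.

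For inhibitory transmission, 2 of 15 measured GABA genes fell, Gad1 and Gabra3 (13.3%, against 0.722% of all genes). Gad1, which makes GABA, had a log2(FC) of -0.21 (SE 0.05, adjusted p = 0.0275, lost in 7 of 13, adjusted p up to 0.0998). The receptor subunit Gabra3 was at -0.22 (lost in 10 of 13, adjusted p up to 0.106). Gad2 was -0.25 (adjusted p = 0.0871). None of 29 genes of glutamate signalling passed. Sv2c, a glycoprotein of synaptic vesicles, read 9.09, 9.36 and 9.55 (lowest, median and highest) in the 8 79Q arrays, against 9.77, 9.85, 9.65, 9.82 and 9.80 in the 5 Control arrays. The groups were separate (log2(FC) = -0.46, SE 0.10, adjusted p = 0.0148, lost in 1 of 13, adjusted p up to 0.0510), while its relatives Sv2a and Sv2b did not pass (-0.07, adjusted p = 0.395, and -0.15, adjusted p = 0.194). Of 27 vesicle and secretory genes Cplx2 also fell (-0.20, lost in 11 of 13, adjusted p up to 0.0895). Of 21 pan-neuronal genes only Prph, the filament protein peripherin, fell (log2(FC) = -0.39, SE 0.06, adjusted p = 0.00182), and Rbfox3 (-0.09, adjusted p = 0.333) and Snap25 (-0.10, adjusted p = 0.258) did not. None of 21 hypothalamic transcription factors passed. Leaving out 79Q replicates 6, 7 and 8 ended the calls of Gad1, Gabra3, Sv2c and Cplx2 (log2(FC) -0.16, -0.19, -0.41 and -0.16) but not that of Prph (-0.39, adjusted p = 0.0161).

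At vessels, Mfsd2a, the transporter of docosahexaenoic acid in brain endothelium, had values of 10.05, 10.20 and 10.68 (lowest, median and highest) in the 8 79Q arrays, against 10.62, 10.74, 10.76, 11.07 and 10.88 in the 5 Control arrays. It fell although the groups overlapped (log2(FC) = -0.55, SE 0.10, adjusted p = 0.00326), and none of the other 26 measured endothelial genes passed, Cldn5 (0.24, adjusted p = 0.162, or 0.0178 without Control replicate 1) and Slc2a1 among them. Among genes that glucocorticoids induce, 2 of 19 fell, Hif3a and Fkbp5 (10.5%, against 0.722% of all genes). Hif3a had a log2(FC) of -0.50 (SE 0.10, adjusted p = 0.0104). Fkbp5 was at -0.24 (SE 0.06, adjusted p = 0.0346, lost in 8 of 13, adjusted p up to 0.126). Without the 3 arrays the log2(FC) was of similar size, at -0.45 for Hif3a and -0.22 for Fkbp5, and neither passed (adjusted p = 0.0726 and 0.230). The Control arrays were themselves spread on this list, with means of -0.14, -0.12, -0.04, 0.23 and 0.07 around their own mean in replicates 1, 2, 4, 5 and 7, against -0.21 to -0.04 in 79Q. Of the 8 79Q arrays, 4 were below the lowest Control array.

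Several programs tied to mutant HTT in other settings had no call in 79Q vs. Control. None of 23 measured heat shock and chaperone genes passed (median -0.02), none of 24 of the unfolded protein response (median 0.04), none of 36 of oxidative phosphorylation (median -0.02) and none of 13 immediate early genes. Of 21 genes that are high in striatum and known to be low in the striatum of Huntington's disease, none passed (median -0.06). Of 19 genes for HTT and its partners 1 rose, Rest (0.24, adjusted p = 0.0325, lost in 7 of 13, adjusted p up to 0.109, 0.19 without the 3 arrays, adjusted p = 0.271), a repressor of neuronal genes that normal HTT holds in the cytoplasm. None of 10 reference genes passed, with log2(FC) from -0.12 to 0.12. A list without a call is not shown to be unchanged.

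To see whether the expanded repeat set 79Q apart from the same fragment with 18 repeats, the difference between both injected groups was tested in the same fit. 0 of 34,760 probe sets passed in 79Q vs. 18Q (0.0%, limma, smallest adjusted p = 0.256), with 552 higher and 923 lower at an unadjusted p under 0.05. Both effects against Control use the same 5 Control arrays, and the values below are given side by side for that reason. Cxcl13 had a log2(FC) of 5.68 in 79Q and 6.07 in 18Q against Control, and the difference 79Q minus 18Q was -0.39 (95% interval -0.98 to 0.20). For Ifit1 the values were 3.08 in 79Q and 3.51 in 18Q, with a difference of -0.42 (95% interval -0.88 to 0.04). For B2m they were 1.46 in 79Q and 1.50 in 18Q, with a difference of -0.04 (95% interval -0.23 to 0.15). These intervals include 0, and they leave room for a difference of about the size of their bounds.

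In the cholesterol pathway, Sqle was -0.30 in 79Q and -0.22 in 18Q (difference -0.08, 95% interval -0.18 to 0.01), and Idi1 was -0.42 in 79Q and -0.34 in 18Q (difference -0.08, 95% interval -0.22 to 0.06). For neuronal genes, Hdc was -0.81 in 79Q and -0.17 in 18Q, a difference of -0.64 (95% interval -0.94 to -0.34), with log2 values of 9.02, 9.59, 9.31, 9.44 and 9.21 in the 5 18Q arrays. Tacr3 was -0.45 in 79Q and -0.21 in 18Q, a difference of -0.24 (95% interval -0.38 to -0.11). For Nms the values were -0.72 in 79Q and -0.40 in 18Q (difference -0.32, 95% interval -0.66 to 0.02), and for Vip -0.84 in 79Q and -0.25 in 18Q (difference -0.59, 95% interval -1.12 to -0.07). Intervals that exclude 0 here are unadjusted, and no adjusted p passed. Hdc, Tacr3, Nms, Sqle, Idi1, Cxcl13, Ifit1 and B2m were named for their change in 79Q vs. Control. Such a choice tilts 79Q minus 18Q towards that change, so these intervals are no test of repeat length.

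**Figure D5:**
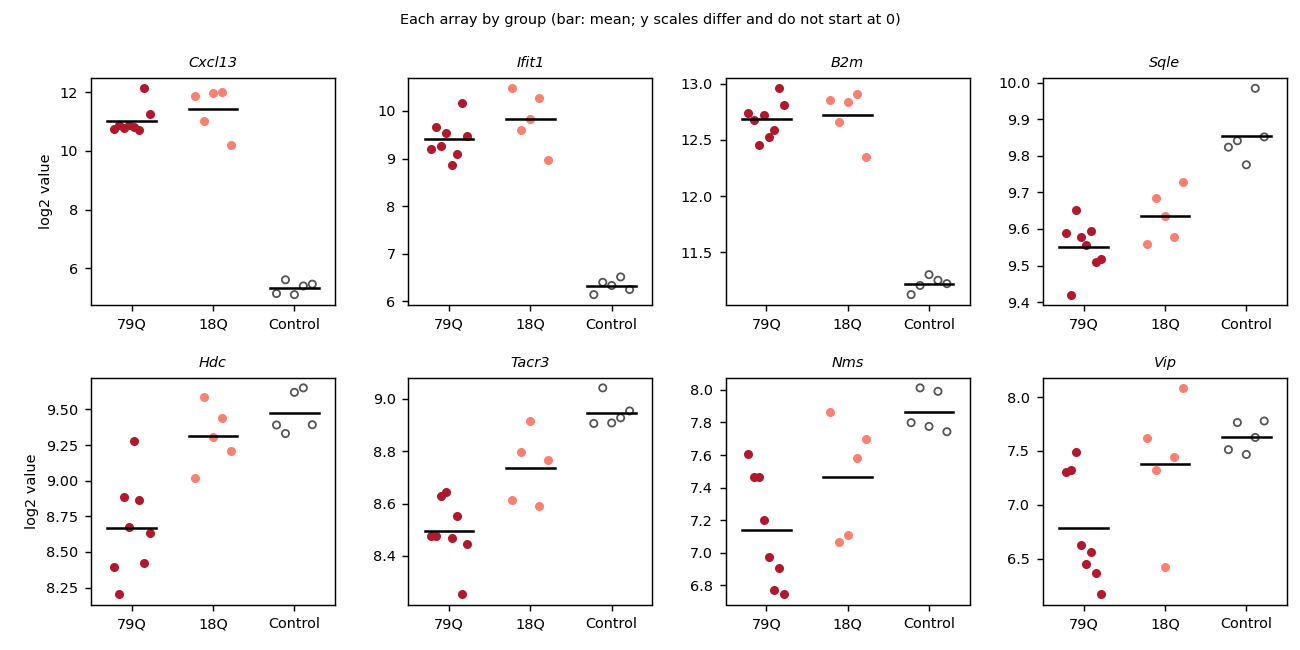
Log2 value of every array (y axis, own scale in each panel) for 8 genes in 79Q (8 arrays), 18Q (5) and Control (5), from left to right, with group means as bars. 79Q and 18Q overlap for Cxcl13, Ifit1, B2m and Sqle, and 79Q lies below 18Q on average for Hdc, Tacr3, Nms and Vip. Cxcl13, Ifit1, B2m, Sqle, Hdc, Tacr3 and Nms were picked for their change in 79Q vs. Control, which tilts this comparison.

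The 8 79Q mice did not respond equally. Replicate 7 had the highest list mean and replicate 3 the lowest for the type I interferon response, at 1.84 and 1.04 over Control, while the 5 Control arrays stayed within -0.02 and 0.02. The same 2 mice were at the ends for the interferon-inducible GTPases (2.58 and 1.22), for B and plasma cell genes (1.34 and 0.21), for complement (0.94 and 0.44) and for MHC class I presentation (0.94 and 0.39). Jchain was 10.93 in replicate 7 and 6.83 in replicate 3, and Cd3g was 8.16 and 6.76. For cholesterol synthesis, which fell, replicate 7 was lowest (-0.28) and replicates 1 and 3 were highest (-0.17 and -0.17). The spread among 79Q mice in interferon genes was thus several times that among Control mice, with an SD of the list mean of 0.27 in 79Q and 0.01 in Control.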

How the data were processed

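Total RNA of dissected mouse hypothalamus was hybridised to Affymetrix Mouse Gene ST arrays. The authors read the raw scans with affy 1.70.0 in R 4.1.1, applied Robust Multi-Array Averaging and deposited log2 intensities per probe set, which were used as given. Since this normalization equalises the distributions of the arrays, a change of total RNA per tissue cannot be seen. The 8 79Q, 5 18Q and 5 Control arrays were fitted together with limma 3.58.1 (R 4.3.3: lmFit, contrasts.fit and eBayes), and the contrasts 79Q minus Control and 79Q minus 18Q were tested two-sided, with Benjamini-Hochberg adjustment over 34,760 probe sets and a threshold of 0.05. The other 20 arrays of the series, from BACHD mice and their controls, appear to come from separate normalization runs and were left out. The method was tested on simulated data.

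Genes were named from the annotation of the array platform, updated to RefSeq symbols: 21,640 probe sets had 1 symbol, 1,321 several and 11,799 were unnamed here. Where a gene had several (954 genes), the brightest probe set on average was taken. Some genes of the lists are not reported here. The 62 gene lists and the groups compared were chosen with earlier results of these data known. The text names the 15 largest increases and decreases that passed the test with 79Q and Control arrays apart, up to 4 members of each list with the smallest p, members that did not pass where a sentence needs them, and genes the study measured or named. Further list members were named for their role after their values were seen. Alternatives were the 13 arrays alone, centring, repeated quantile normalization, a filter on dim probe sets, a trended robust eBayes, array weights, the replicate number as a block, the mean over probe sets of a gene, an exact permutation test (1287 splits, smallest possible p 0.000777), each array left out in turn and, chosen after seeing the data, 79Q replicates 6, 7 and 8 left out together.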

Additional observations from a re-analysis of the deposited data

Results flagged for a closer look

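Named genes and lists were searched for an array whose distance to the nearest other array took an unusually large share of the range of its group (Dixon's criterion, 472 groups of arrays). It singled out 27 values (5.72%), where chance gives about 1 in 20. Of these, 11 were high log2 values of immune and microglial genes in 79Q replicate 7: Ccl8 at 6.74 (others 5.84 to 6.20), Cfb at 8.02 (others 7.25 to 7.56), Cxcl13 at 12.13 (others 10.70 to 11.27), Cxcl16 at 7.36 (others 6.33 to 6.70), Fcer1g at 10.03 (others 8.85 to 9.41), Il1a at 7.34 (others 6.11 to 6.51), Irf7 at 9.92 (others 8.67 to 9.18), Oas2 at 8.48 (others 7.47 to 7.88), P2ry12 at 8.06 (others 7.43 to 7.63), Selplg at 10.50 (others 9.88 to 10.17) and Zbp1 at 8.58 (others 7.33 to 7.92). The same array stood above the other 79Q arrays in the list mean of homeostatic microglia, at 0.50 over Control (others 0.12 to 0.26). Plasma cell genes were low in 79Q replicate 3, with Igha at 7.44 (others 11.67 to 13.24) and Jchain at 6.83 (others 9.07 to 10.93). Lipid genes were low in 79Q replicate 2, with Elovl2 at 8.06 (others 8.21 to 8.34) and Fdft1 at 10.97 (others 11.30 to 11.46). In Control replicate 2 the values singled out were C4b at 8.85 (others 8.51 to 8.59) and Gad1 at 11.62 (others 11.45 to 11.49). In Control replicate 4 the values singled out were Ctss at 8.41 (others 8.73 to 8.83) and Tlr13 at 6.53 (others 6.76 to 6.85). In Control replicate 5 the values singled out were Ciita at 6.32 (others 6.46 to 6.50), Cyp51 at 9.56 (others 9.38 to 9.43) and Pou2af1 at 6.86 (others 7.15 to 7.19). In Control replicate 7 the values singled out were Ccl3 at 6.17 (others 6.39 to 6.47), Cd274 at 7.67 (others 7.85 to 7.90) and Cd79a at 5.27 (others 5.58 to 5.70). For the list of oligodendrocytes and myelin, Control replicate 1 had a mean of 0.085 over the Control mean (others -0.04 to -0.01). No difference between conditions under the same contrast was singled out, since 0 probe sets passed the test of 79Q vs. 18Q. The cause of these values was not tested.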

How the results depend on the processing

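Between settings, the calls moved more among genes that fell than among genes that rose. With 1 array left out, the probe sets that passed in 79Q vs. Control ran from 439 (without Control replicate 5) to 811 (without 79Q replicate 3), those higher from 374 to 582 and those lower from 65 to 235 (without 79Q replicate 4). For genes the ranges were 325 to 627 in all, 281 to 449 higher and 44 to 178 lower, the lower ends without Control replicate 5 and the upper ends without 79Q replicate 3. Without 79Q replicates 6, 7 and 8 together, chosen after seeing the data, 328 probe sets passed (295 higher, 33 lower) and 238 genes (218 higher, 20 lower), 236 of them among the 546 genes. The replicate number as a block left 402 probe sets (348 higher, 54 lower) and 300 genes (260 higher, 40 lower). The labels do not say whether equal numbers pair mice. Deviations of same-numbered arrays of 79Q and Control correlated at 0.014, 0.097, -0.15, -0.052 and 0.080, and 1 of 5 arrays correlated best with its own number. These correlations show no pairing, but they cannot exclude one. Array weights gave 1092 probe sets (411 lower) and 842 genes (319 lower). Centring each array on its median gave 327 lower probe sets and 238 lower genes, the filter on dim probe sets 322 and 270, and the mean over all probe sets of a gene 277 lower genes. The share of probe set calls that were higher ran from 54.5% (dim probe sets left out) to 89.9% (the 3 arrays left out), against 72.0%. None of the 546 genes changed sign under any of the 22 settings compared. The cause of the other shifts was not tested.

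Of the 39 interferon genes, 33 to 34 passed with 1 array left out and 21 after the filter on dim probe sets, which tests fewer members. Of the 18 cholesterol enzymes, 6 (without Control replicate 5) to 10 passed with 1 array left out, and 5 without 79Q replicates 6, 7 and 8. In 79Q vs. 18Q, 0 probe sets passed, or 1 without 79Q replicate 5. Among single genes, Htt turned to -0.00493 after centring and Cga to 0.21 without 79Q replicates 6, 7 and 8, both without passing. Of the 150 named genes that passed, 98 still did without these 3 arrays, 107 with the block, 149 with the trended robust fit and 150 with array weights. By the exact permutation test all 150 had p under 0.05 without adjustment, as had 44 of the 53 named genes that did not pass, so that this test says little about the calls. Of 726 list medians under an alternative, 8 moved by more than 1 SD of the 79Q list means, all with dim probe sets left out, and 13 changed sign. These medians cover 33 of the 62 lists. The number of arrays limits small changes: the median 95% interval, unadjusted, was 0.13 log2 units to either side, and a call needed a larger change.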

Other observations

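Outside the main gene groups, a few glial, clock and lysosomal genes passed the test of 79Q vs. Control. In brackets stands, where a call was lost, the number of the 13 fits with 1 array left out that lost it, and the 3 arrays are 79Q replicates 6, 7 and 8. Gpr17, a receptor of committed oligodendrocyte precursors, had values of 9.20, 9.33 and 9.46 (lowest, median and highest) in the 8 79Q arrays, against 9.67, 9.62, 9.44, 9.43 and 9.56 in the 5 Control arrays. The groups overlapped, and it fell (log2(FC) = -0.23, SE 0.05, adjusted p = 0.0289, lost in 6 of 13, adjusted p up to 0.0993, -0.23 without the 3 arrays, adjusted p = 0.140), as 1 of 7 measured precursor genes, while the progenitor marker Pdgfra did not pass (-0.18, adjusted p = 0.124). Per3, a component of the circadian clock, fell by a small step (log2(FC) = -0.15, SE 0.03, adjusted p = 0.0214, lost in 4 of 13, adjusted p up to 0.0760) as 1 of 18 clock genes, and without the 3 arrays its log2(FC) was -0.15 and did not pass (adjusted p = 0.166). Gusb, a lysosomal enzyme, rose by a small step with separate groups (log2(FC) = 0.16, SE 0.03, adjusted p = 0.0144, lost in 1 of 13, adjusted p up to 0.0532, 0.16 without the 3 arrays, adjusted p = 0.0617), 1 of 5 genes that rose among 27 of autophagy and lysosome. Of 11 genes of tanycytes and ependyma, 17 of the cell cycle and 12 of pericytes and fibroblasts, none passed.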
